A study of Arabidopsis thaliana with 30 samples.

Results

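Late embryogenesis abundant (LEA) protein genes of *Arabidopsis thaliana* were followed from freshly harvested seed to the young seedling. The set comprised 50 genes, chosen by their annotation as LEA protein genes and not by any measured value, out of 38217 features in the gene table. They fall into 10 dehydrins, 15 genes of the LEA_4 family, 2 of LEA_5 (EM1 and EM6), 3 of LEA_1, 3 of LEA_2, 4 of LEA_3, 3 short LEA genes, 6 genes with the seed maturation protein (SMP) domain, 2 genes related to PvLEA18 of bean and the pair M10 and M17.

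LEA proteins are small and very hydrophilic, and most have little fixed structure in solution. They accumulate in the embryo as seeds dry at the end of maturation, where they are thought to protect membranes and enzymes when water is lost, and many are also made in leaves and roots during drought or cold. In seeds their genes are controlled by abscisic acid (ABA) through basic leucine zipper factors such as ABI5, which bind the ABA-responsive element (ABRE) with its core ACGTG, whereas the CBF factors of the cold response bind the dehydration-responsive element (DRE) with its core CCGAC.

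The plants were wild type of the ecotype Col-0, and there were 3 libraries at each of 10 time points. The samples were seed frozen on collection (H), dry seed after ripening (0 h), seed sown on MS medium and kept for 1, 12 and 48 h at 4 °C in the dark (labelled S for stratification), and seed or seedlings 1, 6, 12, 24 and 48 h after transfer to continuous light at 22 °C (1 h SL to 48 h SL). The light and the warmth began together and cannot be told apart. During stratification, cold, darkness, imbibition and elapsed time ran together and cannot be told apart either. Whole seeds were sampled, so embryo and endosperm are mixed. The sources give ripening as 15 days or as a fortnight. RNA of a bulk sample does not show whether a lower level came from fewer cells of a type or from less RNA per cell.

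Total counts ranged from 8234345 to 76294780 reads per library, so 3 reads correspond to between 0.0393 and 0.364 counts per 1000000 counted reads (CPM). The 1 h S libraries differed among themselves, with summed counts of 5 green seedling genes of 43.4, 745 and 190 CPM (36.2 to 81.2 CPM at 0 h, 10569 CPM on average at 48 h SL). Root genes summed to between 0.738 and 11.9 CPM, storage-rich dry seed genes to between 57813 and 108440 CPM and endosperm genes to between 3369.8 and 8897 CPM in these 3 libraries. Comparisons with 1 h S are therefore given with and without 1 h S replicate 2, the library with the fewest reads and the most green seedling RNA, and the part of this RNA in the results was not tested. Ribosomal RNA took 13.1% of the counts of 12 h SL replicate 3 and at most 1.05% of any other library.

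Promoters are shown first, because the ABRE core is the letter sequence by which ABA factors are known to act on LEA genes. RefSeq sequence (TAIR10.1, where all 50 members matched the positions of the gene table) was read for the 250 bases before each annotated start and searched on both strands for the ABRE core, for the DRE core and for the core of the RY element, bound by B3 factors such as ABI3, which reads CATGCA. Overlapping matches of the ABRE core counted as 1 site. The gene classes used here, 36 members that fell and 8 that rose from 0 h to 48 h SL, come from the counts described further on. The core ACGTG was present before 30 of the 36 members that fell (83.3%), 4 of the 8 that rose (50%) and 22.9% of 27278 protein-coding genes. At least 2 such sites stood before 22 of the 36 (61.1%), 1 of the 8 (12.5%) and 4.98% of all genes. A match is a string of letters and not a measured binding site.

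The first sequences are those of RAB18 and EM6, the most abundant members in dry seed, and of AT3G53040, which with AT4G36600 held the most ACGTG sites (5). Each is the 250 bases before the gene, 5′ to 3′ on the strand of the gene, and capitals mark ACGTG or its reverse complement CACGT. They lie on the minus strand at chr5:26519448-26519697 (RAB18), chr2:16780369-16780618 (EM6) and chr3:19666498-19666747 (AT3G53040).
RAB18: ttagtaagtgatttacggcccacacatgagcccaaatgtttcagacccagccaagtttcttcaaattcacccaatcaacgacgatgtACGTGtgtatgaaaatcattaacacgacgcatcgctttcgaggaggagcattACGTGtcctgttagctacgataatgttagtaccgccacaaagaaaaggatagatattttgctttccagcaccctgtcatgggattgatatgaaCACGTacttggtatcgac
EM6: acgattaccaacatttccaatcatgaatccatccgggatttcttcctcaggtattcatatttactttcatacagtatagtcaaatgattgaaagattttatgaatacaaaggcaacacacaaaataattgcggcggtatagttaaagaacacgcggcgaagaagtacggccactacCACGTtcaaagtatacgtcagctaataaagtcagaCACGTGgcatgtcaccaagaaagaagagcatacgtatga
AT3G53040: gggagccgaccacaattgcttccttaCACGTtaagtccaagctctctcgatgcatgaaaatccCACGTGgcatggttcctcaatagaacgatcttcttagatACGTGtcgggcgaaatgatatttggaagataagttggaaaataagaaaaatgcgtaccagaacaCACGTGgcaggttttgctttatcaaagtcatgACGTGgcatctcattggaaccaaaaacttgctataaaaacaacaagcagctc

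LTI30, a dehydrin whose mean level peaked at 12 h S, had no ACGTG in this window but 3 copies of CCGAC. These are in capitals here, together with the reverse complement GTCGG. M10, AT2G23110 and AT2G23120, the other members whose mean peaked at 12 h S, held no CCGAC in their windows. Of the LEA_3 genes that rose over stratification, SAG21 and LEA3 held none and DI21 held 1. The rise of LTI30 from 1 h S to 12 h S was not called. In that step 0 of the 10 dehydrins were called higher (edgeR), where 18.1% of all genes were. COR47, a dehydrin that rose in the light, held neither core in its window and is shown in lower case. The windows are chr3:18940393-18940642 on the plus strand for LTI30 and chr1:7086874-7087123 on the minus strand for COR47.
LTI30: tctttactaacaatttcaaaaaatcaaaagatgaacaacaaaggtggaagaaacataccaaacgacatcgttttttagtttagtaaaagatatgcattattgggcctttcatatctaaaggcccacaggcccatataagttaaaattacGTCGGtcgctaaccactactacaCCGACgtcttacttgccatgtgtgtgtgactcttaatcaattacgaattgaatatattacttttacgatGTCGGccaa
COR47: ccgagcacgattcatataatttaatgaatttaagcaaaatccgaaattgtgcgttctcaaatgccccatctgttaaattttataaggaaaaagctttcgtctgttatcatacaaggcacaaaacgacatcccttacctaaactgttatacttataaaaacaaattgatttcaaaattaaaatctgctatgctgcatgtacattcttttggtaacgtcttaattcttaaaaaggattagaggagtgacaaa

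Across the set, CCGAC stood before 16 of the 36 members that fell (44.4%), 1 of the 8 that rose (12.5%) and 12.0% of all genes. In 1 case, in AT3G53040, it overlapped an ACGTG site. CATGCA stood before 7 of the 36 (19.4%), 1 of the 8 (12.5%) and 8.45% of all genes. In 6 members that fell the window held no ACGTG, namely in LTI30, ATECP31, M17, AT2G23120, AT5G27980 and AT5G38760.

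LEA transcripts made up about 10% of the counted reads of dry seed, and their share became small during germination. A share is relative to all counted reads and does not give amounts of RNA per seed. At 0 h the 50 genes took 9.99%, 10.1% and 10.1% of the reads, a mean of 10.1% ± 0.0803 (SD, n = 3), against 10.2% ± 0.348 at H, and these 2 groups overlapped (exact permutation test, two-sided, p = 0.9). In the deposited transcript values from Salmon they did not, with 12.6%, 13.01% and 12.5% at H and 10.5%, 10.5% and 10.5% at 0 h, so the reading of this step depended on the measure. At 1 h S the share was 12.3%, 11.2% and 10.2%, above every 0 h library. By 12 h S the share was 7.46% ± 0.157, and by 48 h S it was 2.19% ± 0.142. Counted in percentage points, most of the decline thus took place in the cold and dark. On the log2 scale the median change of the tested members from 0 h was -2.62 at 48 h S and -7.91 at 48 h SL. After the transfer the share was 1.95% ± 0.270 at 1 h SL, 0.881% ± 0.0564 at 6 h SL, 0.660% ± 0.0865 at 12 h SL, 0.406% ± 0.104 at 24 h SL and 0.324% ± 0.0112 at 48 h SL. Groups overlapped between 48 h S and 1 h SL (p = 0.3) and between 24 h SL and 48 h SL (p = 0.2), and all other steps after 0 h reached p = 0.1, which is the smallest p that 3 against 3 libraries allow in this exact permutation test. The same steps are drawn in the plot of shares by time point.

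**Figure D1:**
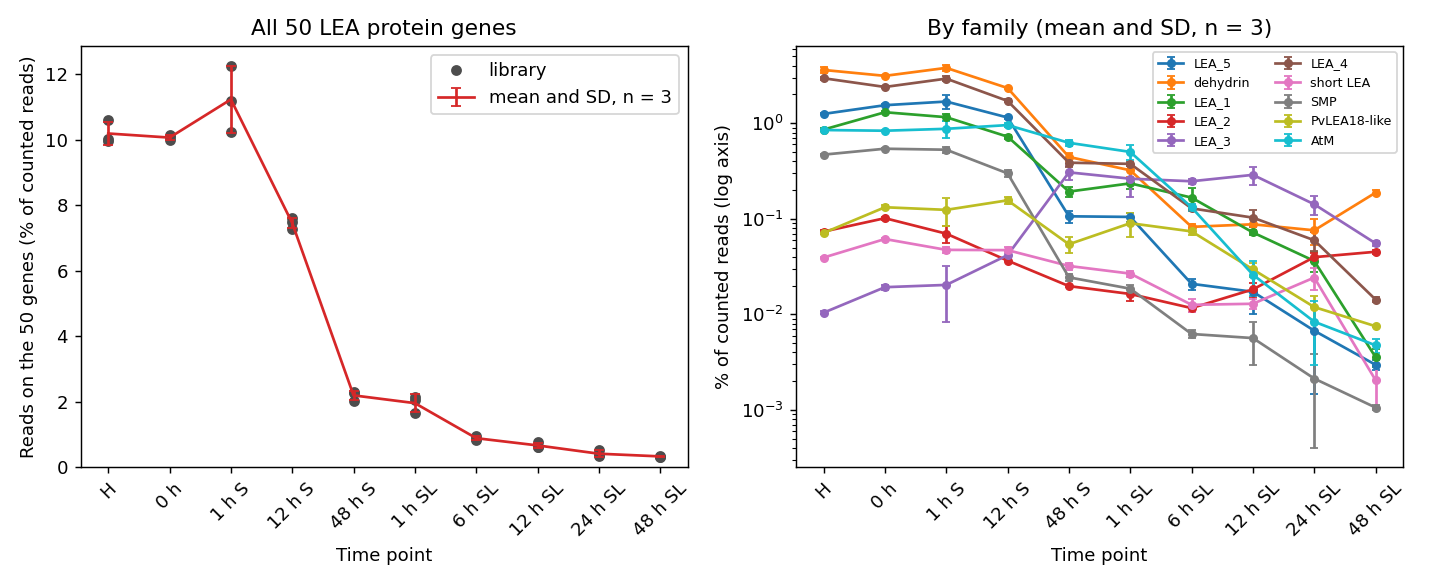
Share of counted reads on the 50 LEA protein genes (left, %, linear axis from 0, points are libraries) and on each of 10 families (right, %, log axis), by time point, with mean and SD of 3 libraries. The total fell from 10.1% at 0 h to 0.324% at 48 h SL, while LEA_3 rose to 0.306% at 48 h S and the dehydrins rose from 0.0757% at 24 h SL to 0.188% at 48 h SL.

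The families did not follow the total alike. Dehydrins took 3.13% of reads at 0 h, LEA_4 genes 2.40%, LEA_5 genes 1.54%, LEA_1 genes 1.30%, M10 and M17 together 0.835% and the SMP genes 0.541%. By 48 h SL the SMP genes were at 0.00106%, LEA_5 at 0.00296% and LEA_4 at 0.0143%. The LEA_3 family moved the other way during stratification, with 0.0192% at 0 h, 0.306% ± 0.05 at 48 h S and 0.0553% at 48 h SL. Dehydrins reached their lowest share, 0.0757% ± 0.0227, at 24 h SL and were at 0.188% ± 0.0102 at 48 h SL.

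Per length of transcript, the leading gene changed with time. At 0 h RAB18 (AT5G66400, chromosome 5, 26518277 to 26519447), a dehydrin that responds to ABA, stood first with 22406 ± 254 CPM per kb (SD, n = 3) and EM6 (AT2G40170, chromosome 2, 16779552 to 16780368) next with 20416 ± 570, a gap larger than their spread. At 12 h S the order of these 2 was within the spread, with 14488 ± 663 for RAB18 and 15020 ± 536 for EM6. M10 led at 48 h S with 8739.9 ± 962 CPM per kb, and SAG21, a LEA_3 gene first described in senescing leaves, led at 12 h SL with 2406 ± 501. At 48 h SL HIRD11, a histidine-rich dehydrin that binds metal ions, led with 947 ± 34.4 and held 32.5% of all LEA reads, whereas RAB18 had held 24.2% of them at 0 h.

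**Figure D2:**
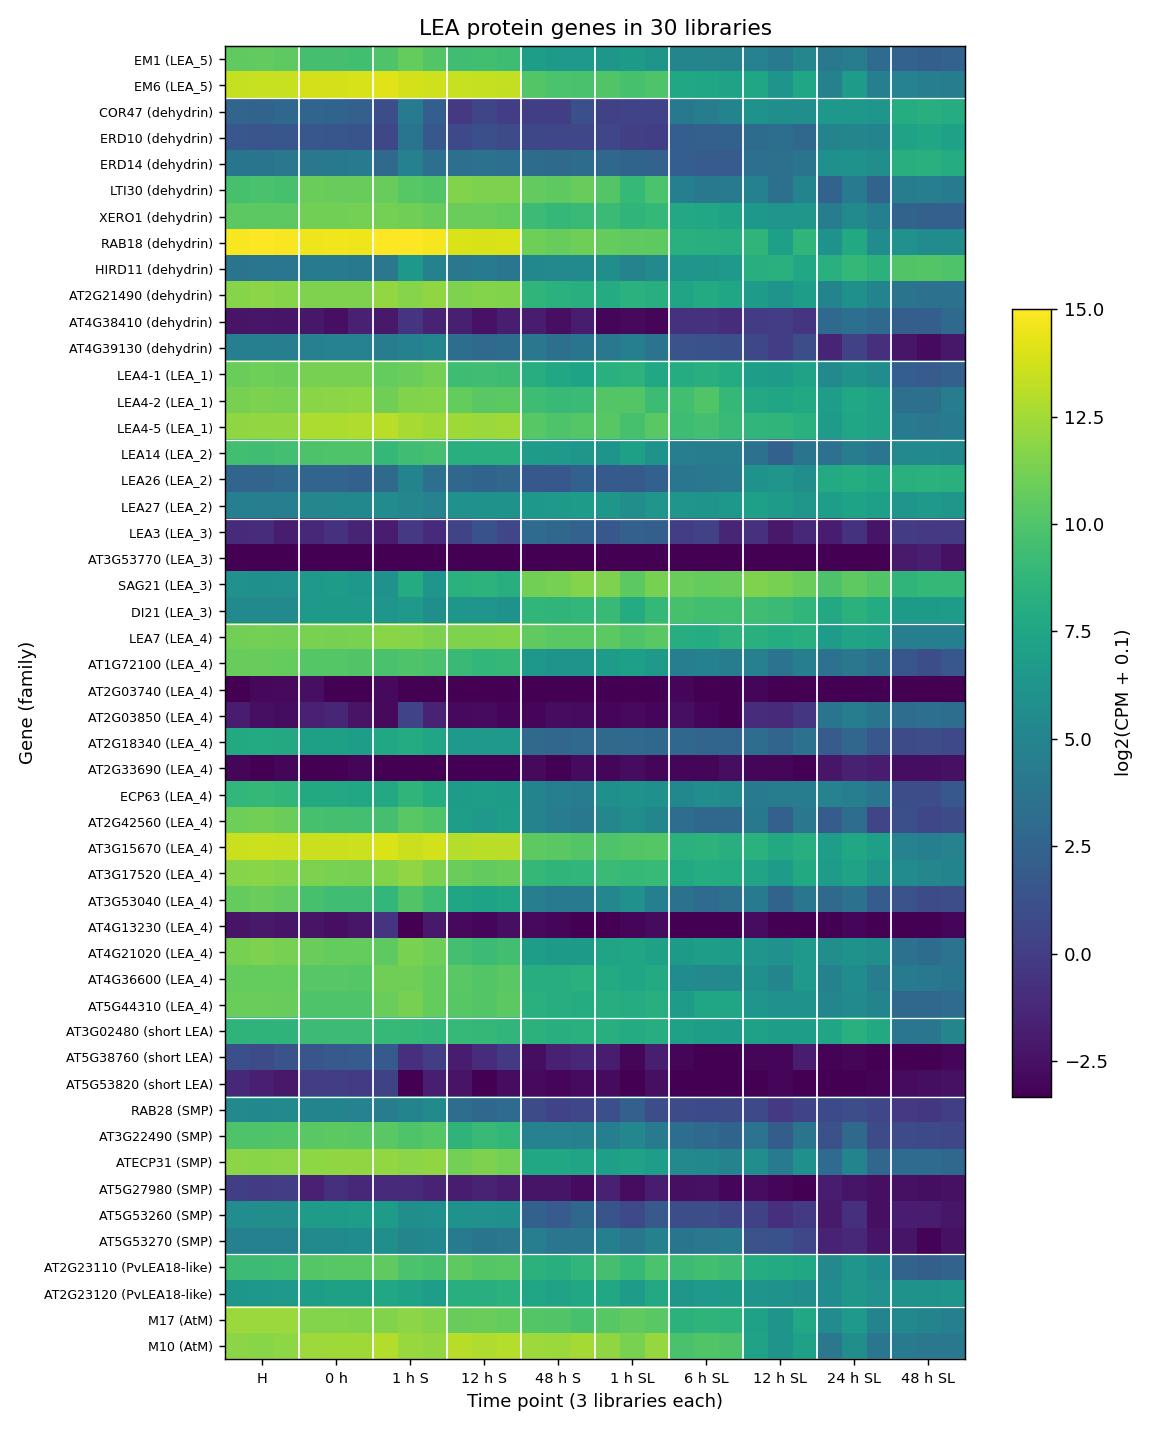
Abundance of the 50 LEA protein genes (rows, with family) in all 30 libraries (columns, 3 per time point), as log2(CPM + 0.1) in colour. Most rows are bright from H to 12 h S and dark by 48 h SL, and HIRD11, COR47, ERD10, ERD14 and LEA26 show the opposite order.

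Of 44 members that reached a mean of 1 CPM at some time point, 10 were highest at H, 11 at 0 h, 8 at 1 h S, 4 at 12 h S, 2 at 48 h S, 1 at 6 h SL, 3 at 24 h SL and 5 at 48 h SL. The 3 dry or barely imbibed stages thus held the peaks of 22.7%, 25% and 18.2% of the members, beside 8.95%, 2.89% and 1.58% of 20860 genes that reached the same level. In contrast, 36.7% of those genes but 11.4% of the members peaked at 48 h SL. A change over the 10 time points was called for 47 of the 50 members by the DESeq2 likelihood ratio test (adjusted p below 0.01), against 73.8% of all 32046 genes with at least 1 read. The exceptions were AT2G03740, AT2G33690 (adjusted p = 0.0364) and AT3G53770. Those 3 had 9, 60 and 29 reads over all 30 libraries, and all reads of AT3G53770 were at 48 h SL.

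The comparison of dry seed with the seedling, 0 h to 48 h SL, asks which LEA genes remain expressed after germination. Of 46 members that passed the filter on low counts, 36 fell and 8 rose at an adjusted p below 0.01 (edgeR quasi-likelihood test, Benjamini-Hochberg adjusted over 23222 genes), where 33.3% of all tested genes fell and 45.8% rose. AT2G03740, AT2G33690, AT3G53770 and AT4G13230 did not pass the filter. The median log2 fold change of the tested members was -7.91, and that of all tested genes was 0.44. With scaling by library size alone these medians were -6.68 and 1.66, so the sizes of all fold changes in this comparison depend on the scaling. In that setting 35 members fell and 9 rose, where 17.8% of all genes fell and 63.5% rose.

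**Figure D3:**
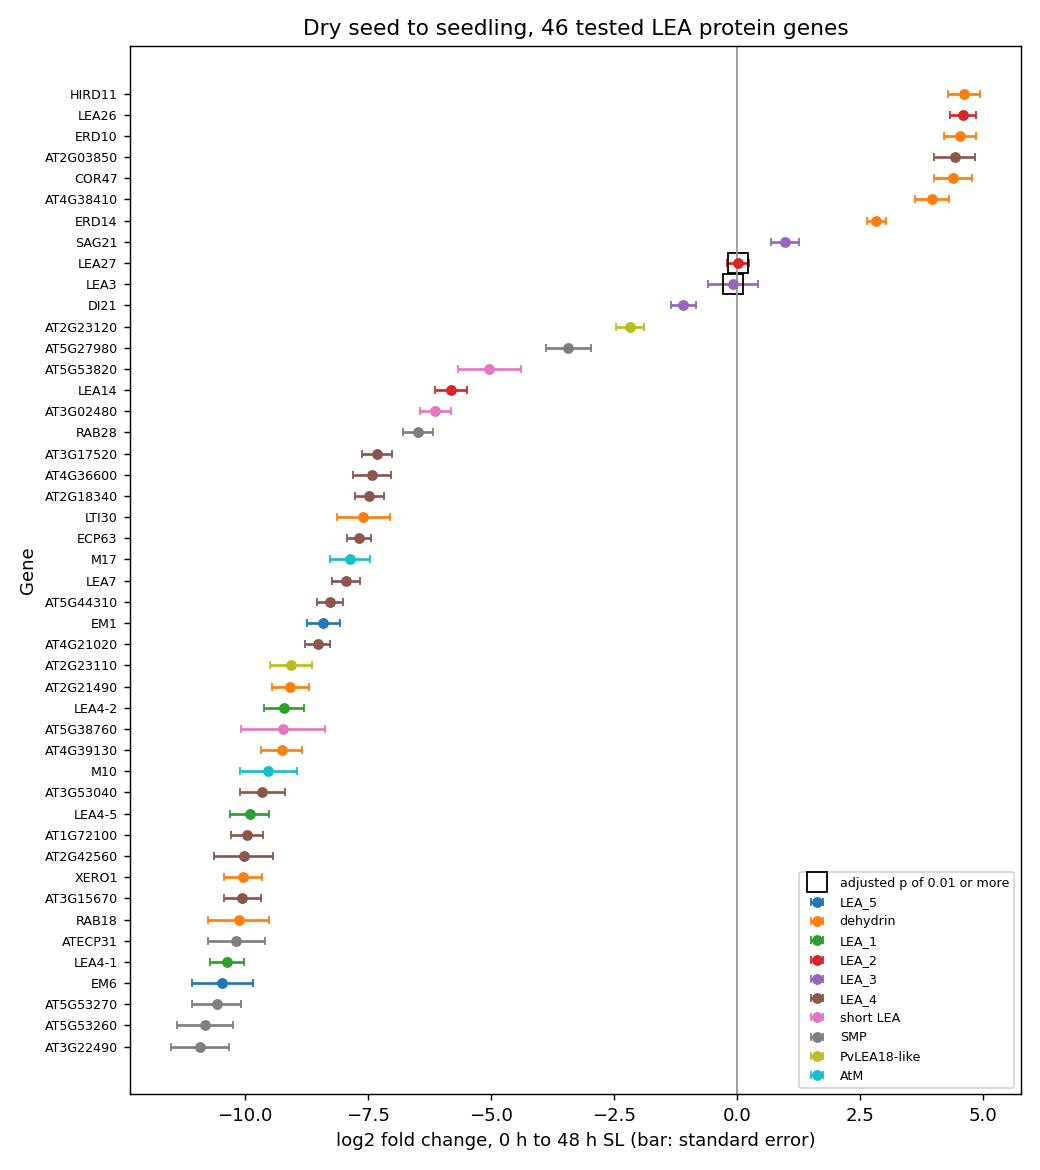
log2 fold change from 0 h to 48 h SL of the 46 tested LEA protein genes, ordered by value and coloured by family. Bars are the approximate standard error derived from the F statistic. Values run from -10.92 (AT3G22490) to 4.62 (HIRD11), and the squares mark LEA27 and LEA3, which did not pass the adjusted p of 0.01 and whose sign changes with the scaling.

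RAB18 had 24098, 24641 and 24461 CPM at 0 h and 60.8, 46.4 and 46.1 CPM at 48 h SL. The groups were far apart, and RAB18 fell by 10.13 ± 0.62 on the log2 scale (approximate SE derived from the F statistic, edgeR adjusted p = 3.04e-14). EM6, a group 1 LEA protein of the embryo, had 14234, 14855 and 15010.0 CPM at 0 h and 28.5, 23.1 and 21.8 CPM at 48 h SL, a fall of 10.46 ± 0.62. Its relative EM1 (AT3G51810) fell by 8.41 ± 0.34, from 770.1, 763 and 713 CPM to 5.47, 4.63 and 5.36 CPM. Both LEA_5 genes were thus still detected in every seedling library.

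All 6 SMP genes fell, with a median of -10.37, where 33.3% of all tested genes fell. The lowest fitted value of all members, that of AT3G22490, was among them, but values of several other members lay within its error. AT3G22490 (chromosome 3, 7969681 to 7970843) had 1287, 1325 and 1293 CPM at 0 h and 1.71, 1.56 and 1.44 CPM at 48 h SL, a fall of 10.92 ± 0.59 (edgeR adjusted p = 2.79e-15). AT5G53260 fell by 10.81 ± 0.57, AT5G53270 fell by 10.58 ± 0.50, and ATECP31, named after a carrot gene of embryogenic cells, fell by 10.17 ± 0.58. The smallest change among them was in AT5G27980, which had 34 reads in all at 0 h and 15 at 48 h SL and fell by 3.42 ± 0.46.

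Among the LEA_4 genes, 11 of 12 tested fell and 1 rose, where 33.3% of all tested genes fell and 45.8% rose. AT3G15670, the most abundant of them, had 11913, 11849 and 12343 CPM at 0 h and 27.7, 23.9 and 28.0 CPM at 48 h SL, and fell by 10.05 ± 0.37. It was followed by AT2G42560 (-10.03 ± 0.60), AT1G72100 (-9.96 ± 0.32) and AT3G53040 (-9.65 ± 0.46). The remaining 7 fell by between 7.32 (AT3G17520) and 8.52 (AT4G21020). The exception was AT2G03850 (chromosome 2, 1175581 to 1176802), which had 0.229, 0.286 and 0.0965 CPM at 0 h and 9.47, 10.3 and 9.59 CPM at 48 h SL and rose by 4.43 ± 0.42 (edgeR adjusted p = 1.81e-10). AT2G03740, which resembles it over stretches of 213 and 353 bases at 83.6% and 80.5% identity, had 9 reads in the whole series.

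The 3 LEA_1 genes, of a family formed in drying seeds and in plants short of water, all fell, where 33.3% of all genes fell. The log2 fold changes were -10.37 ± 0.35 in LEA4-1, -9.91 ± 0.40 in LEA4-5 and -9.21 ± 0.41 in LEA4-2. M10 and M17, described as messages of late seed development, fell as well, with -9.53 ± 0.58 and -7.87 ± 0.41. Of the short LEA genes, AT3G02480 fell by 6.13 ± 0.31 and AT5G53820 by 5.03 ± 0.64, the latter from 91 reads to 13. AT5G38760 went from 345 reads at 0 h to 2 at 48 h SL, and the size of its fitted change depends on the prior count and on 48 h SL replicate 3 (-9.22 with it and -10.96 without it).

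Dehydrins divided, with 5 that fell and 5 that rose among 10 tested, where 33.3% of all tested genes fell and 45.8% rose. Besides RAB18, those that fell were XERO1 (-10.04 ± 0.38), AT4G39130 (-9.26 ± 0.41), AT2G21490 (-9.08 ± 0.37) and LTI30 (-7.59 ± 0.53). HIRD11 (AT1G54410, chromosome 1, 20309473 to 20310850) had 19.3, 19.4 and 16.6 CPM at 0 h and 1059, 1090.0 and 1014 CPM at 48 h SL. All seedling libraries lay above all dry seed libraries, and HIRD11 rose by 4.62 ± 0.33 (edgeR adjusted p = 6.7e-13). ERD10, COR47 and ERD14, acidic dehydrins induced by cold and dehydration in leaves, rose by 4.54 ± 0.33, 4.40 ± 0.39 and 2.84 ± 0.20. AT4G38410 rose by 3.97 ± 0.35 from 15 reads at 0 h to 1180 at 48 h SL.

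The LEA_2 family, whose proteins have a stable fold unlike other LEA proteins, held 1 gene of each kind. LEA14 fell by 5.81 ± 0.32 and LEA26 (AT2G44060) rose by 4.61 ± 0.27, from 6.21, 6.21 and 4.77 CPM to 322, 337 and 313 CPM. LEA27 (AT2G46140) was not called, with 0.03 ± 0.23. In LEA_3, SAG21 rose by 0.98 ± 0.29 (edgeR adjusted p = 0.00297), a call that was lost without any 0 h library or without 48 h SL replicate 2 or 3 (0.89 to 1.01). DI21, first found as a drought-induced gene, had 91.4, 96.2 and 96.7 CPM at 0 h and 103.9, 103.7 and 106 CPM at 48 h SL. It was called lower by 1.08 ± 0.25 relative to other genes, and with scaling by library size alone it stood at 0.14 and was not called. LEA3 was not called, with -0.07 ± 0.52, and with that scaling it was at 1.15. The PvLEA18-related AT2G23110 and AT2G23120 both fell, with -9.06 ± 0.43 and -2.17 ± 0.28.

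**Figure D4:**
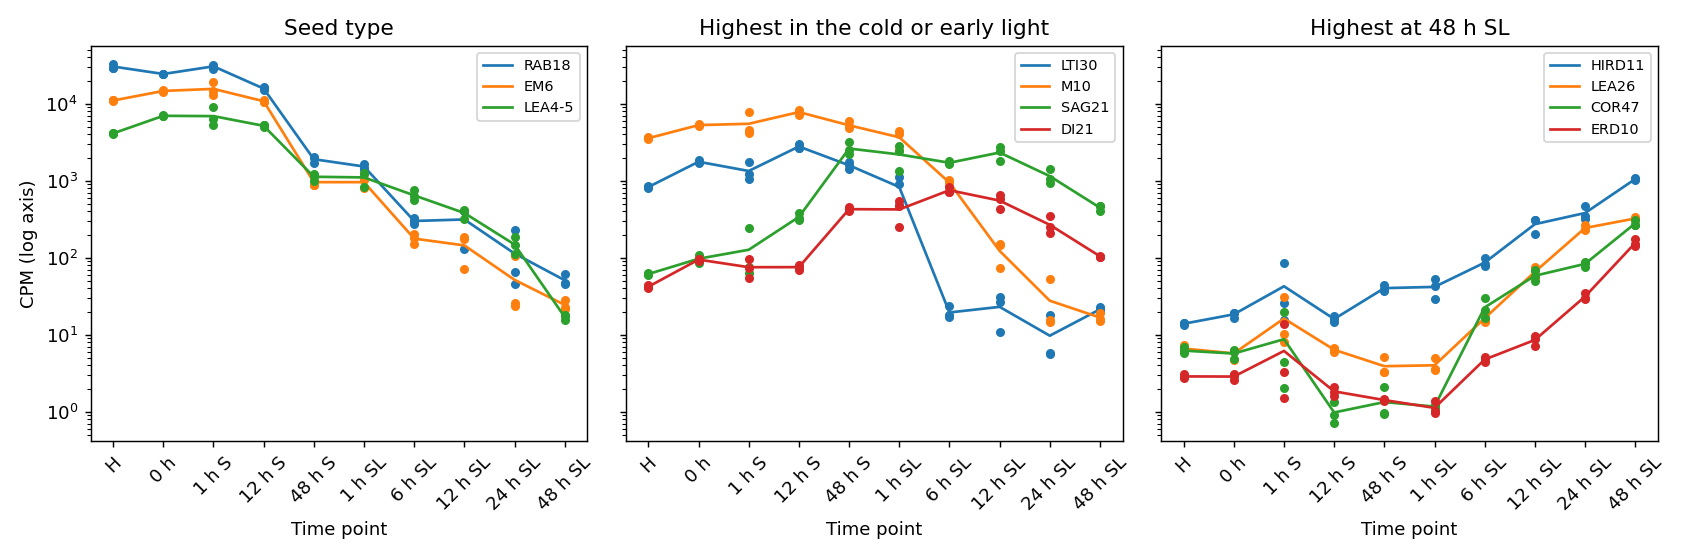
CPM (log axis) of 11 LEA protein genes by time point, with points for libraries and lines through the means of 3. RAB18, EM6 and LEA4-5 fell from 12 h S on, LTI30, M10, SAG21 and DI21 were highest between 12 h S and 6 h SL, and HIRD11, LEA26, COR47 and ERD10 were highest at 48 h SL.

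The timing of the fall was read as the first time point after 0 h at which the mean CPM lay below a fraction of the 0 h mean. Of the 36 members that fell, 2 first lay below 50% at 1 h S, 11 at 12 h S, 17 at 48 h S, 3 at 1 h SL, 1 at 6 h SL and 1 at 12 h SL, and DI21 at no time point. A level below 10% was first met at 12 h S by 1 member, at 48 h S by 14, at 1 h SL by 1, at 6 h SL by 8, at 12 h SL by 7, at 24 h SL by 2 and at 48 h SL by 1, and 2 did not reach it. Thus 15 of the 36 had been below 10% of dry seed by the end of stratification. At 48 h SL 24 of the 36 stood below 1% of their 0 h level, with a median of 0.436%. Early members included AT3G22490, LEA4-1 and AT3G53040, and late ones LEA7, M10 and AT3G02480, which was at 3.34% only at 48 h SL.

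After-ripening, H to 0 h, gave few called members in the model of all libraries and many in a fit of its 6 libraries alone. In the model of all libraries, of the 46 tested, 1 was higher and 6 lower (edgeR quasi-likelihood test), where 2.56% of all genes were higher and 6.26% lower, and the median log2 fold change of the members was 0.19. The split of calls over all genes depended on scaling, with 594 higher and 1454 lower by TMM (edgeR's trimmed mean of M-values, used throughout) but 787 and 884 by DESeq2-type size factors and 954 and 419 by library size alone. ECP63, a LEA_4 gene, had 446, 469 and 421 CPM at H and 230.0, 209 and 198 CPM at 0 h, and fell by 1.14 ± 0.19 (adjusted p = 0.000271). AT5G27980 and AT3G53040 also fell (-1.47 ± 0.34 and -1.30 ± 0.32), and DI21 rose by 1.10 ± 0.25 from 41.2, 40.7 and 44.5 CPM. These 3 calls were each lost when any of the 6 libraries was left out, although in each case the groups did not overlap. With the 6 libraries fitted alone, 24 members were higher (54.5% of the 44 tested) and 15 lower (34.1%), where 26.3% of all genes were higher and 28.4% lower.

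The first hour of imbibition in the cold, 0 h to 1 h S, gave 1 higher and 0 lower members among 46 (edgeR), where 1.24% and 2.04% of all genes were called. At an unadjusted p below 0.05, 4 were higher and 7 lower, together 23.9% of the members beside 28.9% of all genes. The DESeq2 Wald test called 2 higher and 0 lower of the 42 members with an adjusted p. It called 5.03% and 2.94% of all 32046 genes, counted with or without an adjusted p. The gene called was LEA26, with 8.05, 30.6 and 10.1 CPM at 1 h S, up by 1.13 ± 0.24 (adjusted p = 0.00537). All 3 values lay above those at 0 h, but the call was lost without 1 h S replicate 2 (0.65), the library with 745 CPM of green seedling RNA, and without any 0 h library. Without that 1 h S library 0 members were higher and 1 was lower, where 0.0212% and 0.59% of all genes were called. In the same library HIRD11 was at 86.5 CPM, beside 15.6 and 25.9 CPM in the other 1 h S libraries, and COR47 was at 19.8 CPM, beside 2.04 and 4.46 CPM.

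From 1 h S to 12 h S 22 members fell and 4 rose (edgeR), where 17.7% of all genes fell and 18.1% rose, and the member median was -0.89. AT2G42560 had 770, 1288 and 981 CPM at 1 h S and 123, 93.8 and 121 CPM at 12 h S and fell by 3.11 ± 0.44 (adjusted p = 1.72e-06). Larger fitted falls of AT5G53820 (-3.57 ± 0.80) and AT2G03850 (-3.19 ± 0.83) rested on 36 and 16 reads at 1 h S and were lost without 1 h S replicate 1 (-1.27) for the former and without 1 h S replicate 2 (-2.08) or 12 h S replicate 3 for the latter. The former was at -4.46 without 12 h S replicate 1 and the latter at -3.91 without 1 h S replicate 1. LEA3 rose by 2.21 ± 0.56, which was not called without 1 h S replicate 1 or 3 or 12 h S replicate 2. SAG21 rose by 1.58 ± 0.30, from 63.0, 243 and 75.7 CPM to 333, 377 and 308 CPM. AT2G23120 rose by 0.90 ± 0.27, a call that was lost in 23 of 30 fits with 1 library left out. Without 1 h S replicate 2, 20 members fell and 2 rose, where 16.1% of all genes fell and 15% rose.

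The longer part of stratification, 12 h S to 48 h S, brought the largest decline in share, 5.27 percentage points. It lowered 30 members and raised 4 (edgeR), where 24.8% of all genes fell and 27% rose, with a member median of -1.73. AT3G22490 had 397, 532 and 456 CPM at 12 h S and 27.5, 27.4 and 25.6 CPM at 48 h S and fell by 4.39 ± 0.44 (adjusted p = 2.08e-09). AT2G18340 fell by 4.01 ± 0.25 and ATECP31 by 3.95 ± 0.44. By contrast, 3 LEA_3 genes rose together in this step. SAG21 rose by 2.67 ± 0.31 to 2235, 2479.9 and 3166 CPM. DI21 rose by 2.22 ± 0.26 to 425, 406 and 454 CPM. LEA3 rose by 1.78 ± 0.38 to 8.43, 6.99 and 5.29 CPM. No library of these genes at 12 h S reached the lowest at 48 h S.

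Over the whole of stratification, 0 h to 48 h S, 37 members were lower and 4 higher (edgeR), where 28.5% of all genes were lower and 33.2% higher. The median log2 fold change was -2.62 for the members and 0.03 for all genes. The lowest values were those of AT3G22490 (-6.09 ± 0.48), AT2G42560 (-5.62 ± 0.49) and AT3G53040 (-5.61 ± 0.39). SAG21 rose by 4.28 ± 0.33 (adjusted p = 6.13e-12), LEA3 by 3.79 ± 0.47 and DI21 by 1.69 ± 0.25. The other member that rose was the LEA_2 gene LEA27, at 35.5, 36.4 and 36.8 CPM in dry seed and 87.7, 95.3 and 114 CPM at 48 h S.

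The first hour after transfer to light and warmth, 48 h S to 1 h SL, gave few calls among the members and among all genes. Of the 46 tested members 1 was higher and 0 lower (edgeR), where 4.43% of all genes were higher and 3.66% lower. At an unadjusted p below 0.05, 7 were higher and 6 lower, together 28.3% of the members beside 29.1% of all genes. The DESeq2 Wald test also called 1 and 0, of 46 members with an adjusted p. It called 4.91% higher and 4.76% lower of all 32046 genes, counted with or without an adjusted p. The gene called was ECP63, at 30.9, 24.3 and 21.1 CPM before the transfer and 59.6, 68.1 and 58.3 CPM after it, a rise of 1.19 ± 0.19 (adjusted p = 6.34e-05) with no overlap. It was lower again by 48 h SL, at 2.04, 1.95 and 3.21 CPM.

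Between 1 h SL and 6 h SL 27 members fell and 4 rose (edgeR), where 16.8% of all genes fell and 17.3% rose, with a member median of -1.13. LTI30 (AT3G50970, chromosome 3, 18940643 to 18941611), a dehydrin known for low temperature induction, had 3001, 2662 and 2706 CPM at 12 h S, its highest level, 1106, 489 and 901 CPM at 1 h SL and 23.4, 16.97 and 18.1 CPM at 6 h SL. It fell by 5.57 ± 0.49 in these 5 h (adjusted p = 6.48e-10), more than any other member in that step. Next among the members called came AT4G39130 (-3.01 ± 0.29) and EM6 (-2.56 ± 0.44). Larger fitted values of AT5G53820 (-3.92) and AT5G38760 (-3.76) rested on 5 and 16 reads at 1 h SL and were not called. COR47 moved the opposite way, from 1.11, 1.17 and 1.22 CPM to 16.7, 21.2 and 30.1 CPM, a rise of 4.15 ± 0.40 (adjusted p = 3.55e-09). AT4G38410 and ERD10 rose by 3.87 ± 0.53 and 1.96 ± 0.32.

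From 6 h SL to 12 h SL 13 members fell and 5 rose (edgeR), where 12.9% of all genes fell and 10.7% rose, with a member median of -0.41. M10 had 854, 1032 and 957 CPM at 6 h SL and 152, 72.9 and 145 CPM at 12 h SL and fell by 3.11 ± 0.44 (adjusted p = 4.77e-06). AT5G53270 fell by 3.02 ± 0.34 and LEA4-2 by 2.02 ± 0.29. AT2G03850 rose by 3.65 ± 0.73, from 4 reads to 37, a value that was 4.93 without 6 h SL replicate 1. LEA26 rose by 1.83 ± 0.24 and HIRD11 by 1.49 ± 0.29. Among the 36 members that fell over the course, 12 h SL replicate 2 had the lowest value of its group in 28. Its dry seed genes summed to 1576 CPM, beside 2706 and 3181 CPM in the other 2 libraries.

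From 12 h SL to 24 h SL 27 members fell and 5 rose (edgeR), where 22% of all genes fell and 25.9% rose, with a member median of -1.21. AT2G03850 had 0.391, 0.347 and 0.664 CPM at 12 h SL and 13.6, 20.6 and 13.8 CPM at 24 h SL, its highest level, and rose by 4.98 ± 0.39 (adjusted p = 1.06e-10). AT4G38410 and ERD14 rose by 3.08 ± 0.28 and 2.14 ± 0.20. The steepest falls were in AT5G53270 (-3.62 ± 0.44), M10 (-2.41 ± 0.42) and AT2G23110 (-2.36 ± 0.32). The 24 h SL libraries differed in these genes, with 33 of the 36 members that fell over the course highest in replicate 2, as in RAB18 (65.7, 229.9 and 45.4 CPM). Dry seed genes summed to 654, 1212 and 529 CPM in the same libraries, and the part of this in the results was not tested. Without 24 h SL replicate 2, M10 fell by 3.36.

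In the last step, 24 h SL to 48 h SL, 26 members fell and 6 rose (edgeR), where 19% of all genes fell and 21.9% rose, with a member median of -1.34. AT3G02480, a short LEA gene, was at 20.6% of its 0 h mean at 6 h SL and at 39.8% at 24 h SL. It went from 187, 311 and 229 CPM to 14.9, 14.5 and 31.7 CPM and fell by 3.66 ± 0.28 (adjusted p = 2.87e-11). LEA4-1 and LEA4-2, already at 2.15% and 4.45% of their 0 h means at 24 h SL, fell as well (-3.70 ± 0.26 and -3.58 ± 0.32). ERD10 rose by 2.23 ± 0.29, from 29.0, 34.8 and 30.3 CPM to 152, 174 and 142 CPM, ERD14 by 2.19 ± 0.19 and COR47 by 1.67 ± 0.34. No seedling library of ERD10 came near the range at 24 h SL.

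Of the members, 12 form 6 pairs of near neighbours in the genome, and the ratio within most pairs changed with time. COR47 and ERD10, 1029 bases apart on chromosome 1, had a log2 ratio of CPM per kb of 0.47 ± 0.07 at 0 h (SD, n = 3), -1.46 ± 0.24 at 12 h S, 2.25 ± 0.20 at 12 h SL and 0.33 ± 0.05 at 48 h SL. LTI30 and XERO1, 313 bases apart on chromosome 3, had -0.79 ± 0.09 at 0 h, 1.13 ± 0.22 at 48 h S, -3.71 ± 0.29 at 6 h SL and 1.65 ± 0.16 at 48 h SL. In both pairs these changes were larger than the spread between libraries. AT2G23110 and AT2G23120, 475 bases apart, went from 2.97 ± 0.03 at 0 h to -3.93 ± 0.18 at 48 h SL, and 18.2% of the exon bases of AT2G23120 overlap a gene on the other strand, whose reads cannot be told apart in unstranded libraries.

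The SMP pair AT5G53260 and AT5G53270, 596 bases apart, had 2.06 ± 0.02 at 0 h and -2.45 ± 0.41 at 6 h SL. Their exons align at 91.0% over 431 bases, and sharing of reads between them was not tested. M17 and M10, 1998 bases apart, had -0.46 ± 0.07 at H and -3.35 ± 0.38 at 48 h S. The SMP pair AT3G22490 and ATECP31, 781 bases apart, kept the same order, between -1.44 at 0 h and -2.69 at 48 h S.

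**Figure D5:**
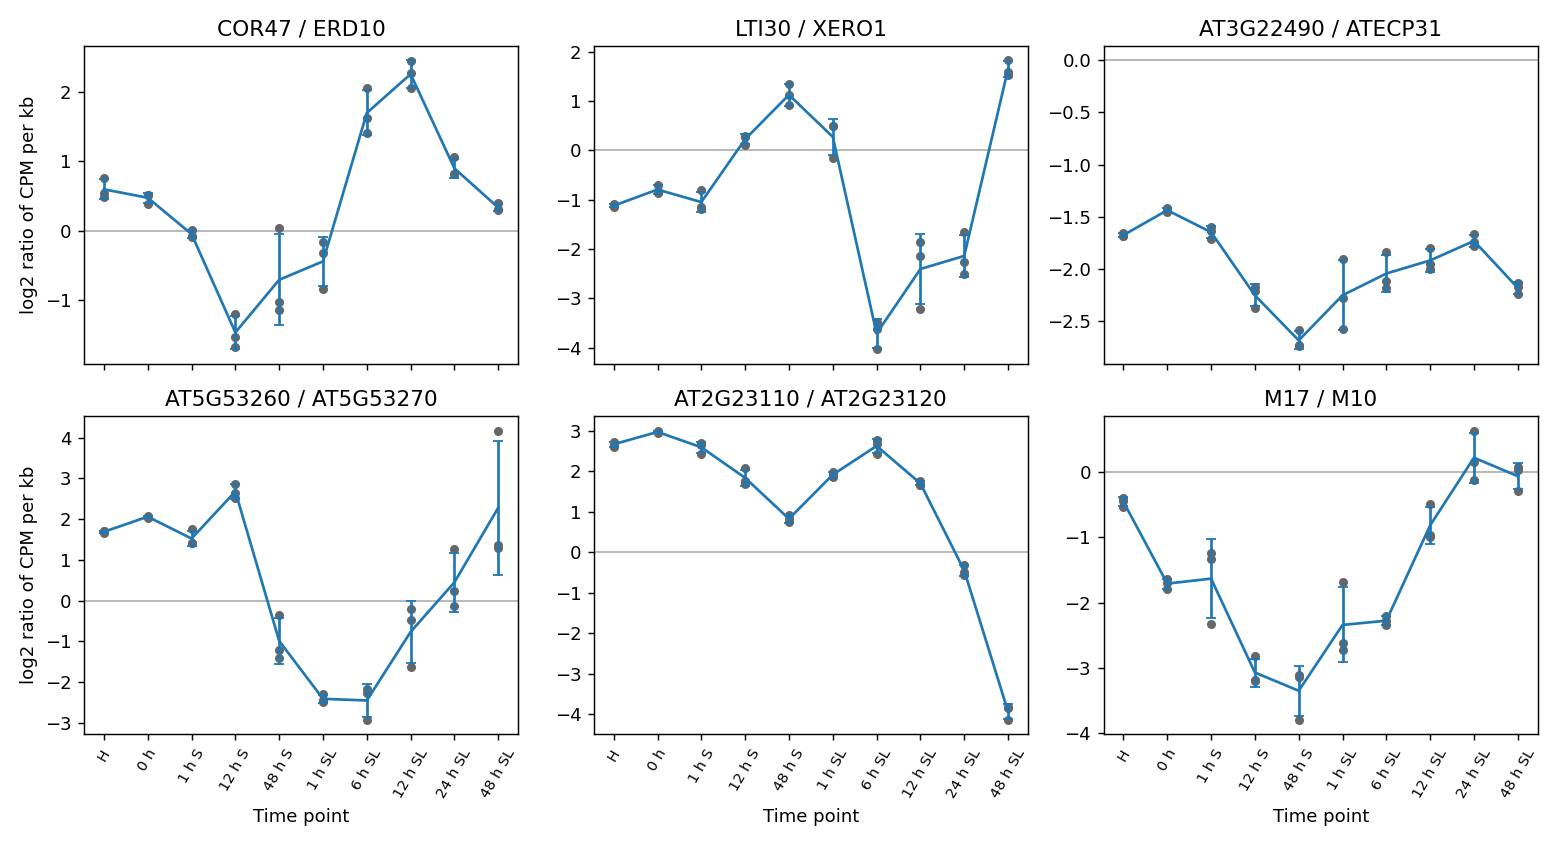
log2 ratio of CPM per kb between the 2 genes of each of 6 neighbouring pairs, by time point, with points for libraries and mean with SD of 3. LTI30 to XERO1 ranged from -3.71 at 6 h SL to 1.65 at 48 h SL, while AT3G22490 to ATECP31 stayed between -2.69 and -1.44.

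Likeness of time courses was described by Pearson correlation over the 10 time point means of log2(CPM + 0.1), which share their libraries. RAB18 was most like EM6 (0.997), AT2G42560 most like AT3G53040 (0.996) and LEA4-1 most like LEA4-2 (0.989). Among members that were high late, LEA26 was most like AT4G38410 (0.972) and ERD10 most like LEA26 (0.956). SAG21 and DI21 were each other's nearest member (0.930). LEA3 had no close partner, with 0.630 to AT2G23120.

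Transcript variants were followed in the Salmon values for the 14 members with at least 2 listed transcripts. The log2 ratio of the main to the second variant changed over time in 10 of them (limma F-test, adjusted p below 0.01), beside 58% of 8324 genes tested. ECP63 had a ratio of 6.33 ± 0.25 at 0 h and 2.22 ± 0.41 at 48 h SL (SD, n = 3, adjusted p = 2.68e-11). ERD10 went from 0.04 ± 1.30 to 4.85 ± 0.68, and for AT2G18340 the variant that was level with the other at 0 h (-0.21 ± 0.42) led at 6 h SL (3.13 ± 0.35). The ratio was not called in RAB18, which stayed between 0.91 and 1.40 (adjusted p = 0.145), nor in SAG21 (2.26 to 2.42), ERD14 and LEA26. The depth behind these values is unknown.

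Transcription factors of seed maturation and ABA response were read beside the set from a list of 16. From 0 h to 48 h SL 10 of them fell and 4 rose (edgeR), where 33.3% of all genes fell and 45.8% rose. ABI5 had 341, 335 and 317 CPM at 0 h and 6.77, 7.23 and 8.95 CPM at 48 h SL and fell by 6.66 ± 0.19, and ABI3 fell by 3.70 ± 0.37. ABF3, a related ABA factor of vegetative tissue, rose by 6.20 ± 0.44, from 0.163, 0.393 and 0.217 CPM to 42.5, 44.9 and 43.7 CPM. ABF4 and AREB3 were called lower (-0.997 ± 0.19 and -0.92 ± 0.16) although their CPM were higher in the seedling, with ABF4 at 13.5, 15.1 and 13.6 CPM at 0 h and 16.7, 16.5 and 16.2 CPM at 48 h SL, so their direction depends on the scaling.

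Of 9 cold pathway genes 7 were tested from 0 h to 48 h SL. Of these 2 rose and 2 fell, where 45.8% of all genes rose and 33.3% fell. RD29B, which responds to ABA through ABREs, fell by 9.02 ± 0.30, and COR15A fell by 3.55 ± 0.39. KIN2 rose by 2.40 ± 0.29 and COR15B by 1.62 ± 0.51. Over stratification, 0 h to 48 h S, 5 of the 7 fell and 2 rose (edgeR), where 28.5% of all genes fell and 33.2% rose. The median of the 7 was -3.00, and the summed level of the 9 genes went from 571, 531 and 511 CPM to 74.3, 61.8 and 53.6 CPM. The 2 that rose were COR15B (4.34 ± 0.44) and CBF2 (5.30 ± 0.76), the latter from 2 reads at 0 h to 176 at 48 h S. Seed storage protein genes and oil body protein genes, which mark reserves of the same maturation phase, fell in 9 of 9 and 7 of 7 cases from 0 h to 48 h SL, with medians of -9.19 and -9.47, beside the member median of -7.91.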

How the data were processed

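RNA-seq libraries of 10 time points, 3 each, were analysed. The authors trimmed reads with Trim Galore 0.4.2, aligned them to TAIR10 with HISAT2 2.0.5 and deposited counts per Araport11 gene from featureCounts 1.5.1. Reads that match several places were handled in a way not given in the sources used here. No alignment of a member's exons elsewhere in the genome, of at least 50 bases, reached 98% identity over its length. Near-identical runs inside longer alignments of lower identity were not searched for. AT5G53260 and AT5G53270 aligned at 91.0% over 431 bases, and sharing of reads within such pairs was not tested. Labels call the libraries unstranded with selection of polyadenylated RNA, while the named kit is for total RNA. The transcript signal deposited by the authors is TPM from Salmon 0.7.2 divided by a factor per library in sleuth 0.28.1. Deposited tables with log2 values of genes selected by the authors and with their own transcript tests were not used. All sample columns could be assigned (0 unused).

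Counts were tested in 1 model of all 30 libraries with the edgeR 4.0.16 quasi-likelihood test (TMM, filterByExpr with a minimum count of 10, 23222 genes, 11 comparisons, R 4.3.3), called at an adjusted p below 0.01. The effect of time was tested with DESeq2 1.42.0 and ratios of transcript variants with limma 3.58.1 on log2(value + 0.1). These tests were also run on simulated data with the same spread for every gene and smaller changes than those of many members. Such data do not show how the tests perform on the libraries used here. CPM are counts per 1000000 counted reads and, per kb, per summed exon length as deposited. The sources state 3 biological replicates of seed from 1 batch of plants, so p-values measure the spread among these. The labels number replicates alike at each time point. Same-numbered libraries deviated together, with all 3 correlations above 0.1, only between 6 h SL and 12 h SL (0.195 to 0.371), where a fit with the replicate number as a block again called 5 members higher and 13 lower.

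All 50 members could be named with their levels, with fold changes for 0 h to 48 h SL and, in other comparisons, for up to 3 called members with the largest rise and 3 with the largest fall. LEA27 at 48 h S was added after its values were seen. The members, the gene lists and the tests were chosen with earlier results of these data known. Other scalings, no filter, the DESeq2 Wald test, fits of 6 libraries and the omission of each library were tried. Levels are given with the spread between libraries, which includes counting error. The value after ± on a fold change is an approximate standard error. It is the absolute log2 fold change divided by the square root of the quasi-likelihood F statistic.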

Additional observations from a re-analysis of the deposited data

How the results depend on the processing

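Of 3475 recomputed fold changes of named members, 3375 kept their direction and their side of the threshold, 68 lost the call, 1 gained it and 31 changed sign. All those that changed sign were in LEA27, LEA3 and DI21 from 0 h to 48 h SL. LEA27 was at -0.0548 with DESeq2-type size factors, -0.0547 with the DESeq2 Wald test, -0.0242 without 1 h S replicate 2 and 12 h SL replicate 3 (a choice made after seeing the data), -0.10 with 6 libraries alone and -0.10 to 0.0448 when 1 library was left out. LEA3 was at 1.15 with library size alone and -0.28 to 0.13 when 1 library was left out (positive without 0 h replicate 2), and DI21 was at 0.14 with library size alone.

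The small steps depended on the fit. From H to 0 h, 3 members were higher with library size alone, 3 without the 2 libraries named above and 24 with 6 alone. Lower were 3 with DESeq2-type size factors, 3 with library size alone and 15 with 6 libraries alone. Over all genes, 954 of 23222 were higher with library size alone and 1349 of 23522 without the 2 libraries. With 6 alone, 4657 of 17729 were higher and 5030 lower. Of 23222 genes, 884 were lower with DESeq2-type size factors and 419 with library size alone. From 0 h to 1 h S, 2 members were higher with DESeq2-type size factors, library size alone and the Wald test. Without the 2 libraries 0 were higher and 1 was lower, and with 6 alone 0 were higher. Over all genes, 349 of 23222 were higher with DESeq2-type size factors, 200 with library size alone and 1613 of 32046 with the Wald test. Without the 2 libraries 28 of 23522 were higher and 200 lower, and with 6 alone 0 of 17237 were higher. From 1 h S to 12 h S, 2 members were higher with DESeq2-type size factors, the Wald test and without the 2 libraries. With 6 alone 0 were higher and 12 lower. Over all genes, 3373 of 23222 were higher with DESeq2-type size factors and 3543 of 32046 with the Wald test. Without the 2 libraries 3632 of 23522 were higher, and with 6 alone 1964 of 17904 were higher and 996 lower. With library size alone 2 members were higher from 48 h S to 1 h SL, where 924 of all 23222 genes were. With 6 libraries alone 14 members were lower from 12 h SL to 24 h SL, where 3965 of all 20401 genes were. A fit of 6 libraries has fewer libraries to estimate the spread. When 1 library was left out, the member counts ranged from 0 to 3 higher and 1 to 8 lower (H to 0 h). They were 0 to 3 higher and 0 to 3 lower (0 h to 1 h S), and 1 to 4 higher and 17 to 26 lower (1 h S to 12 h S). The range was 1 to 2 higher and 0 to 1 lower (48 h S to 1 h SL), and 7 to 8 higher and 36 lower (0 h to 48 h SL). Over all genes the same omissions gave 87 to 1214 higher and 336 to 2087 lower from H to 0 h. For 0 h to 1 h S they gave 1 to 1831 higher and 79 to 1103 lower.

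From the Salmon values the summed share was 12.7% at H and 10.5% at 0 h, where the libraries of these groups did not overlap, 7.85% at 12 h S, 2.67% at 48 h S, 2.41% at 1 h SL, 1.14% at 6 h SL, 0.754% at 12 h SL, 0.680% at 24 h SL and 0.469% at 48 h SL, and without ribosomal and organelle genes it was 10.2% at 0 h. The cause of these differences was not tested. With the replicate block every one of 94 named values kept its direction and call, and the counts were the same except for 24 lower members from 1 h SL to 6 h SL and 25 from 24 h SL to 48 h SL. Depth limits AT2G03740, AT2G33690, AT3G53770, AT4G13230, AT5G27980, AT5G38760 and AT5G53820, which had between 9 and 980 reads in all 30 libraries.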
